A study of Capra hircus with 6 samples.

Results

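Regions of differing chromatin accessibility at transfer RNA (tRNA) genes were taken from a comparison of goat mammary epithelial cells in the dry period and in lactation. A listed region was placed at a tRNA gene when its centre lay within 1000 bp of either end of a tRNA gene annotated on chromosomes 1 to 29. This held for 267 of 30714 listed regions, or of 29978 on these chromosomes. The rule uses position only. The assay was ATAC-seq, which reads open chromatin from where a transposase, Tn5, can insert into the DNA, on 50000 cells per library. The dry period, the pause in milking before the next birth, had 3 libraries (replicates 1, 2 and 3) and lactation had 3 (replicates 1, 2 and 5), all of Capra hircus mammary gland. The labels name no breed, age or treatment beyond the period. Nothing says that each library is a different animal, and the method behind the p-values is not given. Whether a p-value uses the spread among libraries is therefore unknown. At most it measures how far these libraries differ among themselves, which can be technical.

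The authors' deposited table gives each region a fold change with its p-value and FDR (false discovery rate) for the whole comparison and no value per library, so the depth of each library is unknown and no level per sample can be given. The table holds no expression values, so the labelled cell type could not be set against its marker genes. Every region is listed at a p under 0.001, and "differing" is used below for those with an authors' FDR under 0.05. Regions are named in 2 series, called set 1 and set 2 here, each with fold changes above 1, and each set was read as the sites that are more open in 1 period than in the other. Which period a set stands for is stated nowhere in the table or the labels, so directions are given by set. The only test behind a single region is the authors' own. Groups of regions are described by counts and medians beside those of all listed regions, with no test of the difference, and 95% Wilson intervals cover counting error only.

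Transfer RNAs carry amino acids to the ribosome and read codons through a matching anticodon. Their genes are short and are transcribed by RNA polymerase III from control elements inside the gene, bound by the factor TFIIIC, which brings in TFIIIB at the start site. Active tRNA genes lie in open chromatin and often stand in clusters. A lactating gland makes large amounts of a few milk proteins and so has a high demand for charged tRNA. Ruminant genomes also carry many copies of short repeats derived from tRNA, and an annotation can hold some of these as tRNA genes. For this reason the genes were split by how many share an anticodon and amino acid. A gene was called high-copy when its family had over 100 genes on the numbered chromosomes. A family name such as TRNAK-CUU gives the amino acid letter (K, lysine) and the anticodon.

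The regions at tRNA genes belonged almost wholly to set 1, as did most other listed regions of the stretches that hold them. Set 1 held 255 of the 267 regions, or 95.5% (interval 92.3% to 97.4%), and set 2 the other 12, beside 74.4% of all listed regions. At an FDR under 0.05 there were 131 regions (49.1%, 43.1% to 55.0%), beside a background of 27.8% of all listed regions. All 131 were in set 1. A count of 0 in set 2 among 131 allows a share of up to 2.29% if regions are independent, which clustered regions need not be. Over all differing regions the set 2 count was 708 of 8330. Because set 1 is the set in which more regions pass, the share was also read within it. There, 51.4% of the regions at tRNA genes passed, beside 34.2% of all set 1 regions. Part of the genome-wide gap was shared by the surroundings. The 267 regions lay in 78 stretches of 1 Mb, and of the 2288 other listed regions in those stretches 86.8% were in set 1 and 32.7% passed the FDR. In the 8 stretches with 5 or more regions at tRNA genes, all 174 of these were in set 1, as were 333 of the 350 other listed regions (95.1%), and 55.2% and 41.7% passed. In the remaining 70 stretches, 87.1% of the 93 regions at tRNA genes and 85.2% of the 1938 others were in set 1, and 37.6% and 31.1% passed.

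**Figure D1:**
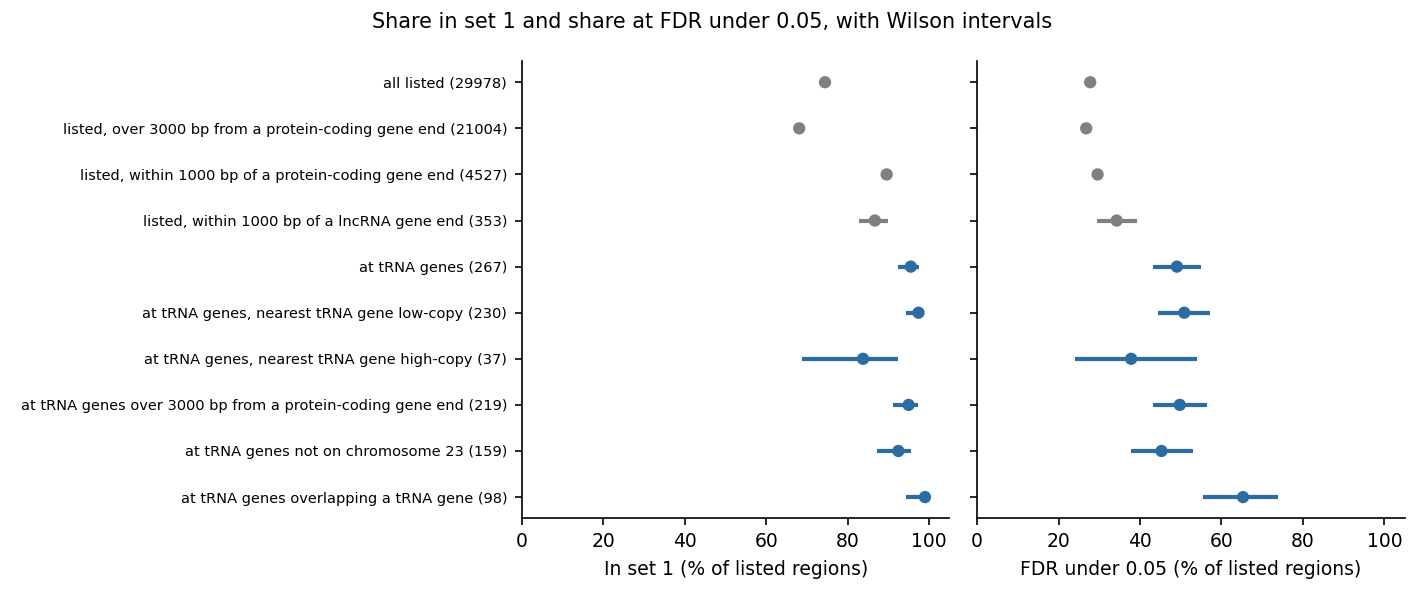
Share of listed regions in set 1 (left, %) and share with an authors' FDR under 0.05 (right, %) for all listed regions and those near gene ends (grey) and for regions at tRNA genes and parts of them (blue). Points are shares, bars are 95% Wilson intervals that cover counting error only, and the number of regions stands in parentheses. The blue points for all regions at tRNA genes lie at 95.5% and 49.1%, beside 74.4% and 27.8% for all listed regions.

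Ends of protein-coding genes are themselves rich in set 1 regions, so the tRNA regions were set beside those. Of 4527 listed regions within 1000 bp of a protein-coding gene end, 89.6% were in set 1 and 29.6% passed the FDR. Near ends of long noncoding RNA genes the shares were 86.7% and 34.3% of 353 regions. Most regions at tRNA genes lay over 3000 bp from the ends of protein-coding genes, as did 21004 of all 29978 listed regions. With the 48 regions within 3000 bp of such a gene's end left out, 219 remained, of which 208 were in set 1 and 49.8% passed. Over all 21004 listed regions this far from a gene end, 68.1% were in set 1 and 26.8% passed. By place, 32 of the 267 regions had their centre inside a protein-coding gene, 35 lay outside within 3000 bp of one, 159 lay 3000 to 50000 bp away and 41 farther than 50000 bp. These places were not counted over all listed regions.

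The size of the change at tRNA genes was close to that of the table as a whole. In set 1 the median fold change of the authors' deposited table was 2.33 at tRNA genes (interquartile range 1.81 to 3.05) and 2.39 over all listed set 1 regions (1.87 to 3.23). Among differing regions alone the medians were 2.36 and 2.32. Set 1 folds at tRNA genes reached 8.86, but no differing one exceeded 5.33. The median width was 300 bp in both, and the upper quartile was 500 bp at tRNA genes and 400 bp over all set 1 regions. The tRNA regions thus passed the FDR more often than the whole table at about the same fold. The number of reads per region is not in the table, so the part of read depth in this was not tested.

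**Figure D2:**
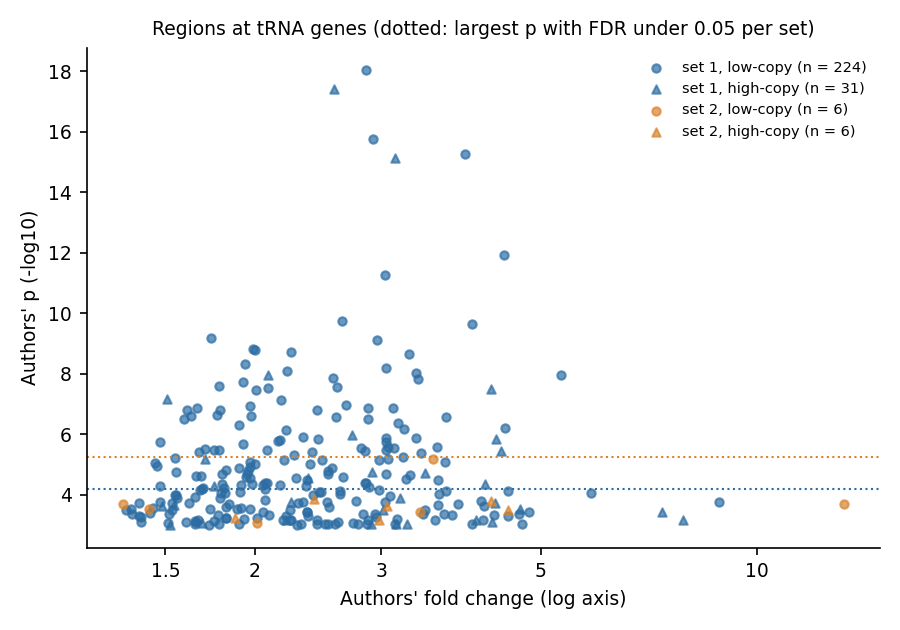
Authors' fold change (log axis) against the authors' p (as -log10) for each of the 267 regions at tRNA genes, coloured by set, with triangles where the nearest tRNA gene is high-copy. Dotted lines mark the largest p with an FDR under 0.05 in set 1 (blue) and set 2 (orange). No set 2 region lies above the orange line, and 131 set 1 regions lie on or above the blue one.

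Set 1 regions were centred close to the tRNA gene itself. In steps of 100 bp from the nearer end of the nearest tRNA gene, the set 1 counts were 58, 41, 40, 32, 21, 18, 8, 12, 16 and 9. The first 500 bp held 169 set 1 regions whose nearest gene was low-copy, against 55 in the next 500 bp, 35 between 1000 and 1500 bp and 10 between 4500 and 5000 bp. Around high-copy genes the same steps held 23, 8 and 11, with 15 at 4500 to 5000 bp. These counts were not divided by the sequence available at each distance, which shrinks with distance where tRNA genes stand in clusters. Its part in the fall was not tested. The 12 set 2 regions showed no such crowding, with 4 in the first 500 bp and 8 in the second. Set 1 regions had a median distance of 270 bp, and those of set 2 one of 751 bp. The rule sets the limit at 1000 bp, and the 3 regions just inside it lay at 970, 979 and 991 bp, with folds in the authors' deposited table of 1.69, 4.32 and 2.58, and the 3 just outside at 1003, 1004 and 1010 bp, with 3.02, 3.25 and 3.18, all in set 1.

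**Figure D3:**
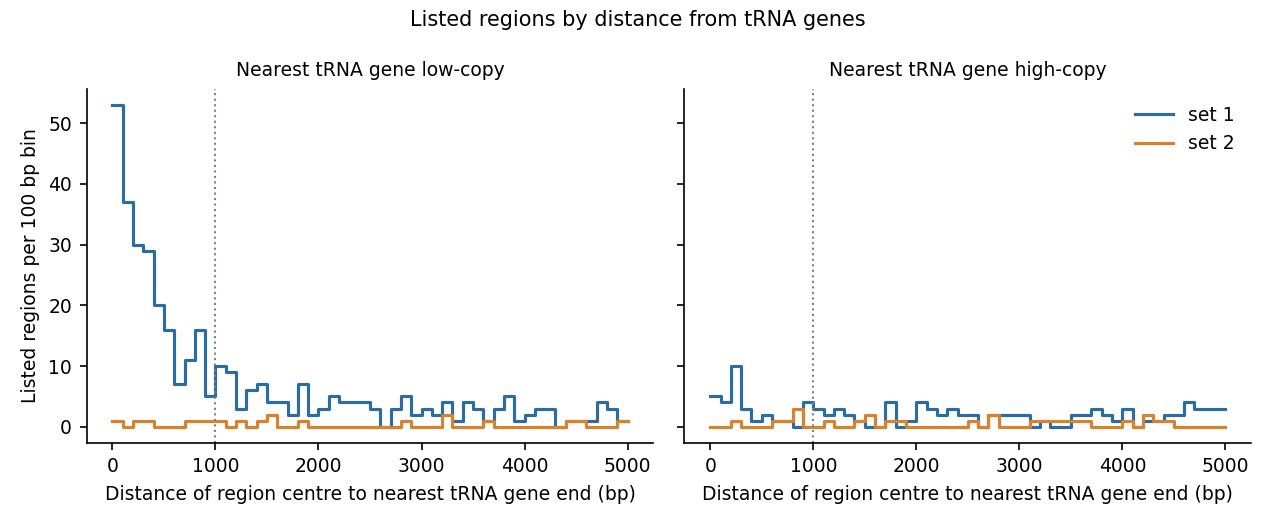
Number of listed regions per 100 bp of distance between the region's centre and the nearest tRNA gene end, out to 5000 bp, for set 1 (blue) and set 2 (orange), where that gene is low-copy (left) or high-copy (right). The dotted line marks the 1000 bp limit. Set 1 counts at low-copy genes are highest next to the gene, with 169 regions in the first 500 bp against 10 between 4500 and 5000 bp. Counts are not divided by the sequence available at each distance.

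Fewer than 4 in 10 of the regions covered a tRNA gene. At least 1 bp of a tRNA gene was overlapped by 98 regions (36.7%, 31.1% to 42.6%), 97 of them in set 1. Of these 98, 64 (65.3%) had an FDR under 0.05, beside 39.6% of the 169 regions that lay next to a gene without touching it. The covering set 1 regions were wider, with a median of 500 bp against 300 bp. A wide region is more likely to touch a gene. Over all listed set 1 regions, the median width was 300 bp, and 400 bp among differing ones. The 2 shares were not matched for width, so the part of width in them was not tested. Their median folds in the authors' deposited table were 2.44 and 2.25. Counted by gene, 256 tRNA genes had a region, and 102 of them (39.8%) were covered by one. The remaining 154 had regions only beside them: 25 on both sides and 129 on 1 side. Up to 3 regions lay at 1 gene, and 75 genes had more than 1. Genes are not independent of each other here, since 60 regions lay within 1000 bp of 2 or more tRNA genes.

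The annotation holds 1574 tRNA genes on the numbered chromosomes, in 54 families, of which 713 genes in 48 families were low-copy and 861 genes in 6 families high-copy. The listed regions lay mostly at the low-copy genes. A region was found at 221 of 713 low-copy genes (31.0%, 27.7% to 34.5%) and at 35 of 861 high-copy genes (4.07%, 2.94% to 5.60%). For regions with an FDR under 0.05 the counts were 137 (19.2%) and 14 (1.63%), beside 9.59% of all tRNA genes. The classes also differ in clustering: 364 low-copy and 811 high-copy genes had no other tRNA gene within 10 kb. Among these lone genes the gap was smaller, with a listed region at 41 (11.3%) and 26 (3.21%). A differing one lay at 20 (5.49%) and 9 (1.11%). In the same table, 21.5% of 19063 protein-coding genes had a listed region within 1000 bp of an end and 7.23% a differing one, from windows that span more sequence because the ends of a tRNA gene lie so close together. A gene with no listed region may be equally open in the 2 periods or equally closed, which a table of differences cannot tell apart.

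The high-copy families were TRNAC-GCA (272 genes), TRNAW-CCA (127), TRNAG-CCC (126), TRNAS-GGA (118), TRNAC-ACA (109) and TRNAE-UUC (109). Their shares of genes with a region ran from 0.917% for TRNAC-ACA to 6.42% for TRNAE-UUC. The 37 regions whose nearest gene was high-copy were in set 1 in 83.8% of cases (68.9% to 92.3%), against 97.4% (94.4% to 98.8%) of the 230 nearest to a low-copy gene. Their median set 1 fold in the authors' deposited table was 3.01, against 2.27 at low-copy genes. High-copy genes with a low-copy tRNA gene within 10 kb had a region in 5 of 19 cases, and those without one in 30 of 842 (3.56%). Cysteine and tryptophan have no low-copy family in this annotation, so genes used in translation cannot be separated from repeats for these amino acids by copy number.

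Among the low-copy genes, those in clusters had a region more often than those standing alone. With no other tRNA gene within 10 kb, 41 of 364 genes had a listed region (11.3%, 8.41% to 14.9%). With 1 to 4 neighbours the count was 106 of 209 (50.7%, 44.0% to 57.4%), and with 5 or more it was 74 of 140 (52.9%, 44.6% to 60.9%). For differing regions the 3 shares were 5.49%, 30.6% and 37.9%. A gene in a cluster can also be counted through a region that it shares with a neighbour. Low-copy genes on chromosome 23 had a listed region in 58.0% of cases, against 22.3% elsewhere. The split by neighbours was not made without that chromosome. Nearness to a protein-coding gene went with a smaller difference: 39 of 108 low-copy genes within 3000 bp of such a gene's end had a region (36.1%), against 182 of 605 farther away (30.1%). Low-copy tRNA genes inside a protein-coding gene seldom had one, at 12 of 147 (8.16%).

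Of the 48 low-copy families, 40 had a listed region at 1 or more genes, and all 40 also had a differing one. The 8 without were TRNAY-AUA (7 genes), TRNAG-ACC (5), TRNASTOP-UCA (5), TRNAL-UAG (4), TRNAH-AUG (2), TRNAR-GCG (2), TRNAA-GGC (1) and TRNAN-AUU (1), 27 genes in all. These families were grouped because they had no region, so their joint count sets no upper limit on a share. Among the 29 low-copy families of 10 or more genes, the share of genes with a region ran from 2.44% to 90.0%, with a median of 38.9%. TRNAP-UGG, a proline tRNA, was highest, with 9 of 10 genes at a listed region and 7 at a differing one. Only 6 regions, 2 of them differing, had a TRNAP-UGG gene as the nearest, so its counts rest partly on regions nearer to other tRNA genes. A single stretch of chromosome 25 held 7 of the 10 genes, 6 of them at a differing region. TRNAL-AAG for leucine followed with 7 of 10, TRNAN-GUU for asparagine with 12 of 20 and TRNAR-ACG for arginine with 6 of 11. TRNAM-CAU, which includes both the initiator and the elongator methionine tRNA, had 14 of 34. At the low end stood TRNAG-UCC for glycine with 5 of 64 and TRNAE-CUC for glutamate with 1 of 41, the largest low-copy families in the annotation. TRNAT-CGU for threonine, a family of 5, had a region at every gene, 4 of them differing.

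**Figure D4:**
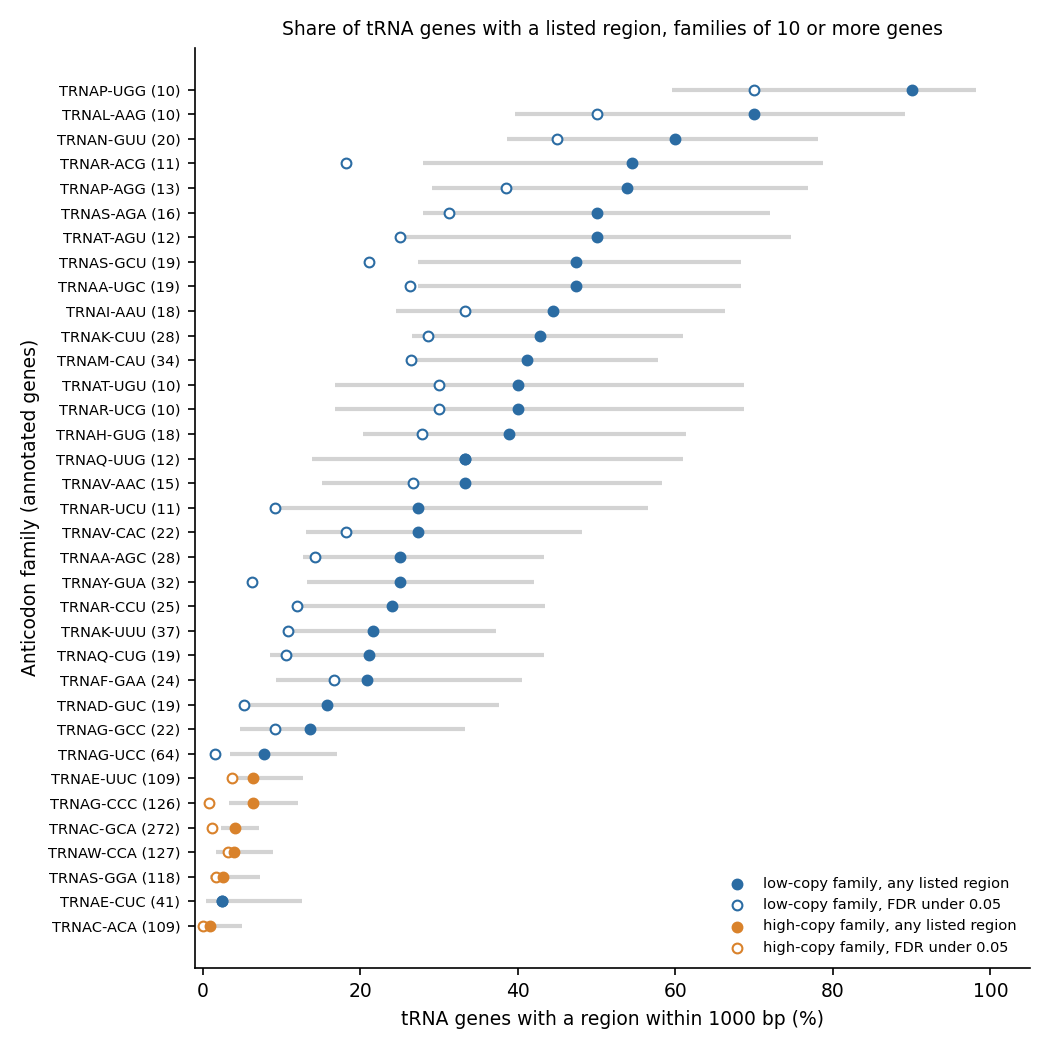
Share of annotated tRNA genes with a listed region within 1000 bp (filled points) and with one at an FDR under 0.05 (open points), for each family of 10 or more genes (numbers in parentheses), low-copy in blue and high-copy in orange. Grey bars are 95% Wilson intervals of the filled points, which treat genes as independent although neighbouring genes can share a region. The range runs from 0.917% for TRNAC-ACA to 90.0% for TRNAP-UGG, and all 6 high-copy families lie under 7%.

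By amino acid, low-copy genes for proline had a region in 20 of 28 cases (71.4%), for asparagine in 12 of 21, for threonine in 15 of 27, for isoleucine in 12 of 23 and for serine in 23 of 45. Alanine (20 of 57), leucine (12 of 36), arginine (21 of 64) and lysine (20 of 65) lay near the share of all low-copy genes. Aspartate (3 of 19), glycine (8 of 91) and glutamate (1 of 41) were lowest. For glutamine the count was 8 of 31 (25.8%). Families differ in how many of their genes stand in clusters, and the part of this in the shares was not tested.

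Members were concentrated in a few places. Chromosome 23 held 108 of the 267 (40.4%), chromosome 3 held 33 and chromosome 25 held 20, and 5 chromosomes (6, 20, 24, 26 and 27) held 0. Cut into stretches of 1 Mb, 78 stretches had a member, 51 of them a single one, and the 3 fullest had 125 (46.8%). The fullest was chromosome 23 from 18000001 to 19000000, with 76 regions at 72 of its 116 tRNA genes, which serve 17 amino acids. The next was chromosome 23 from 19000001 to 20000000, with 32 regions at 30 of 51 genes. All 108 regions on chromosome 23 were in set 1, and 59 had an FDR under 0.05, beside 81.6% in set 1 and 33.4% passing among all 1111 listed regions of that chromosome. A set 2 count of 0 among 108 allows a share of up to 2.78% if regions are independent, which neighbours in the same stretch need not be. The 119 other listed regions of these 2 stretches were in set 1 in 116 cases (97.5%), and 69 (58.0%) passed, against 54.6% of the 108. In the first stretch 67 of 109 others passed, against 41 of 76 regions at tRNA genes, and in the second 2 of 10, against 18 of 32.

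Next came chromosome 25 from 2000001 to 3000000, which held only lysine, proline and arginine tRNA genes. Its 17 regions, 13 of them differing, lay at 21 of 29 genes: 7 of 7 TRNAP-UGG genes, 7 of 11 TRNAK-CUU genes and 3 of 6 TRNAP-AGG genes had a region. Folds there ran from 1.35 to 3.21 in the authors' deposited table. All 45 other listed regions of that stretch were in set 1 too, and 12 of them (26.7%) passed, against 76.5% of the 17. On chromosome 3 from 101000001 to 102000000, 16 regions lay at 15 of 51 tRNA genes, with 4 of 5 TRNAH-GUG genes and 6 of 10 TRNAN-GUU genes but 0 of 6 TRNAQ-CUG and 0 of 7 TRNAG-CCC genes. Neighbouring genes of 1 stretch therefore did not all have a listed region. A leucine, proline, threonine and tyrosine cluster on chromosome 10 from 76000001 to 77000000 had 13 regions, 5 of them differing, at 10 of 18 genes. Of its 16 other listed regions, 15 were in set 1 and 6 differed.

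With chromosome 23 left out, 159 regions remained, of which 92.5% (87.3% to 95.6%) were in set 1 and 45.3% (37.8% to 53.0%) passed the FDR, beside 74.2% and 27.6% of all listed regions elsewhere. The 2169 other listed regions of the same stretches stood between, at 86.2% and 31.3%. A listed region was then found at 120 of 539 low-copy genes (22.3%) and at 34 of 844 high-copy genes (4.03%). On chromosome 23 itself 101 of 174 low-copy genes had one (58.0%).

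**Figure D5:**
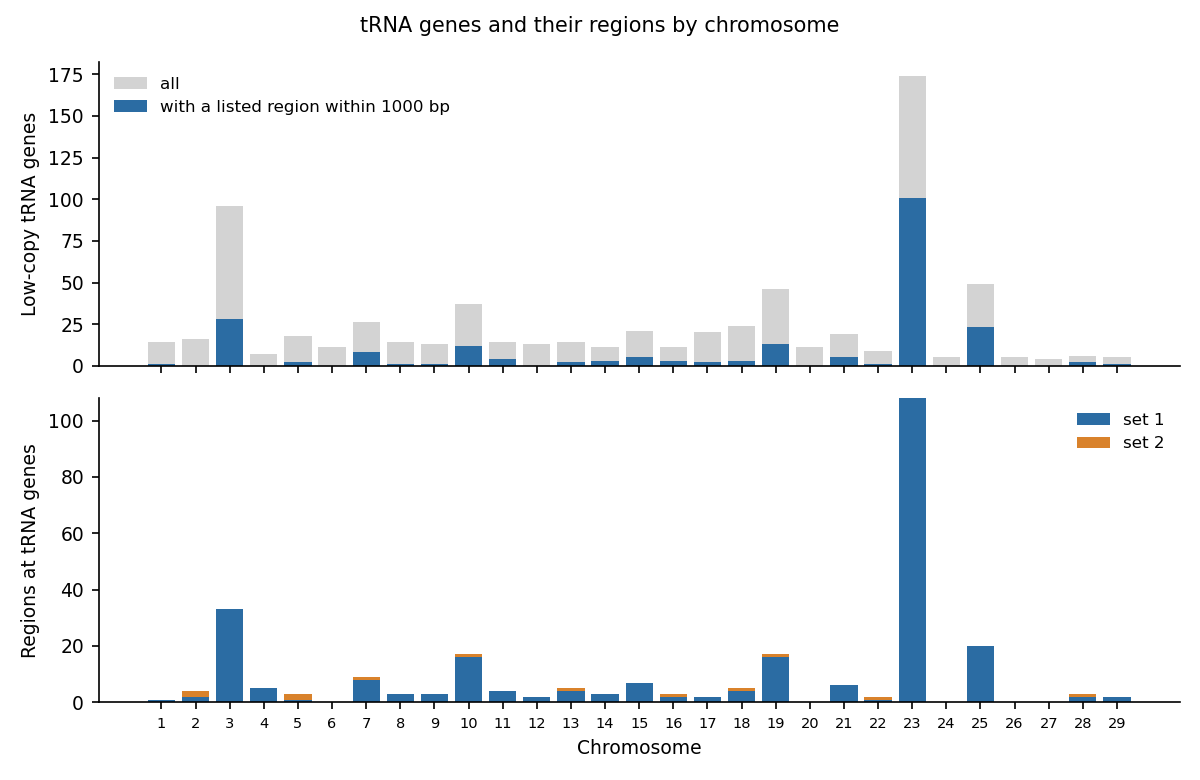
Upper bars show the number of low-copy tRNA genes per chromosome (grey) and of those with a listed region within 1000 bp (blue). Lower bars show the number of regions at tRNA genes per chromosome, set 1 in blue and set 2 in orange. Chromosome 23 stands out with 101 of 174 low-copy genes and 108 regions, all in set 1.

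The region with the smallest p lay on chromosome 3 at 101599601 to 101600400, over a TRNAN-GUU gene for asparagine and with a TRNAH-GUG gene for histidine also within 1000 bp. Its fold in the authors' deposited table was 2.86 (FDR = 3.87e-13), and no protein-coding gene end lay within 50000 bp. On the same chromosome, a region at 101404901 to 101405800 next to another TRNAH-GUG gene had a fold of 4.44 (authors' deposited table, FDR = 6.67e-08). Another, at 101660601 to 101661300 over a TRNAV-AAC gene for valine, had 3.28 (authors' deposited table, FDR = 3.04e-05). At 99282401 to 99283500 a region lay over a TRNAE-UUC gene for glutamate, with a fold of 3.13 (authors' deposited table, FDR = 1.30e-10). Although its family is high-copy, this gene stands in a stretch where 8 of 15 tRNA genes had a listed region. Both TRNAE-UUC genes and 4 of 4 TRNAN-GUU genes had a differing one there, and of 3 TRNAH-GUG genes 2 had a listed and 1 a differing region. The single TRNAE-CUC, TRNAG-CCC, TRNAG-UCC, TRNAK-CUU, TRNAQ-CUG and TRNAV-CAC genes of the stretch had none.

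On chromosome 25 a region at 2497101 to 2498700 with TRNAR-CCU and TRNAK-CUU genes within 1000 bp had a fold of 2.92 (authors' deposited table, FDR = 3.83e-11). The widest of all members, 3000 bp at 2507601 to 2510600, covered 3 tRNA genes, TRNAP-UGG, TRNAK-CUU and a second TRNAP-UGG, with a fold of 3.04 (authors' deposited table, FDR = 2.48e-07). A TRNAP-AGG gene at the same cluster was covered by a region at 2483401 to 2484000 with 2.0 (authors' deposited table, FDR = 2.48e-05). Farther along the chromosome, a region at 13086401 to 13086700 beside a TRNAT-CGU gene for threonine had 1.61 (authors' deposited table, FDR = 0.000758).

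On chromosome 23 the lowest p belonged to a region at 18867301 to 18868600 over a TRNAL-CAA gene for leucine, with a fold of 3.93 (authors' deposited table, FDR = 1.01e-10). A TRNAS-GCU gene for serine was covered at 18574901 to 18576200, where the authors' deposited table gave 2.65 (FDR = 4.27e-06). At 19792201 to 19792900 a region had TRNAT-AGU, TRNAF-GAA and TRNAA-UGC genes within 1000 bp and a fold of 4.01 (authors' deposited table, FDR = 5.13e-06). These 3 genes serve threonine, phenylalanine and alanine. A TRNAI-UAU gene, one of the isoleucine tRNAs, was covered at 19687601 to 19688900 with 2.57 (authors' deposited table, FDR = 0.00012). For a TRNAQ-UUG gene for glutamine, covered at 18933601 to 18934100, the authors' deposited table gave 2.25 (FDR = 2.64e-05), and for a TRNAM-CAU gene for methionine, covered at 18861901 to 18862700, it gave 2.88 (FDR = 0.000714). Beside a pair of TRNAY-GUA genes for tyrosine, a region at 18442101 to 18442500 had one of the 3 largest folds of the differing members, at 4.46 (authors' deposited table, FDR = 0.00209).

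The members with the smallest p for the remaining amino acids had folds from 1.63 to 5.33. In the authors' deposited table the fold was 3.38 at 19810901 to 19811300 of chromosome 23 beside a TRNAA-UGC gene for alanine (FDR = 0.00013). It was 1.79 at 18804101 to 18804700, with TRNAS-AGA and TRNAD-GUC genes for serine and aspartate, and 2.16 at 18292201 to 18293000, with TRNAS-UGA, TRNAM-CAU and TRNAG-GCC genes, by the same authors' deposited table. The largest fold of a differing member, 5.33 (authors' deposited table, FDR = 0.000105), lay on chromosome 17 at 13008601 to 13009000 inside RNFT2, with a TRNAR-CCU gene for arginine 829 bp from its centre. The only low-copy glutamate gene with a region, TRNAE-CUC, had 2 inside SIK3, a kinase gene, on chromosome 15, both differing. The one with the smaller p, at 54823201 to 54823600 and 790 bp from the gene, had 1.63 (authors' deposited table, FDR = 0.00109). The nearer one, at 54823701 to 54823900 and 390 bp away, had 2.85 (authors' deposited table, FDR = 0.0370).

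Some regions lay at a tRNA gene and at the end of a protein-coding gene at once, and belong to either. A region on chromosome 5 at 56514301 to 56515200 covered a TRNAS-CGA gene for serine 944 bp from an end of SMARCC2, a subunit of a chromatin remodelling complex, with a fold of 1.74 (authors' deposited table, FDR = 1.19e-05). The 47 set 1 members within 3000 bp of a protein-coding gene end had a median fold of 1.82, against 2.44 for the 208 set 1 members farther away. Over all listed set 1 regions these medians were 2.18 and 2.53.

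The 12 set 2 regions were narrow, 200 to 400 bp, and none had an FDR under 0.05, beside a background of 9.24% of all set 2 regions. All 12 have an unadjusted p under 0.001 in the authors' deposited table, and 0 of 12 allows a share of up to 25% if regions are independent. Their median fold was 3.01, beside 3.59 for all listed set 2 regions. The closest to the threshold lay inside EYA2, a gene for a developmental phosphatase and coactivator, on chromosome 13 at 75250001 to 75250400, 887 bp from a TRNAG-UCC gene, with a fold of 3.54 (authors' deposited table, FDR = 0.0542). With the limit set instead at an authors' p of 1e-05, whatever the set, it was the 1 set 2 region among 90 passing at tRNA genes, where 17.0% of all listed regions passed. A pair inside TXNRD1, the gene for cytosolic thioredoxin reductase, lay at the same TRNAA-UGC gene on chromosome 5. At 66584501 to 66584700 the fold was 13.2 (authors' deposited table, FDR = 0.412), and at 66583901 to 66584100 it was 3.40 (FDR = 0.554).

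Inside SLC6A2, the gene for the noradrenaline transporter, chromosome 18 had a set 2 region at 25265101 to 25265400 with a fold of 2.41 (authors' deposited table, FDR = 0.338). On chromosome 22 at 20930401 to 20930700, 819 bp from a TRNAS-GGA gene, the fold in the authors' deposited table was 4.26 (FDR = 0.358). Inside PRMT5, an arginine methyltransferase gene, on chromosome 10 at 79510301 to 79510500 and 294 bp from a TRNAR-ACG gene, it was 1.31 (authors' deposited table, FDR = 0.413). In all, 8 of the 12 set 2 members had their centre inside a protein-coding gene, against 24 of 255 in set 1 (9.41%). The share inside a gene was not counted over all listed regions of each set. Of the 12, 6 had a high-copy gene as the nearest, and 1 overlapped a tRNA gene.

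Genes for the proteins that transcribe and process tRNA were looked up in the same table, with a listed region counted when its centre was within 3000 bp of a gene end. For RNA polymerase III, its factors and regulators, 13 of 30 matched genes had a listed region (43.3%) and 6 (20.0%) a differing one, all in set 1. Of all 2700 differing regions within 3000 bp of a protein-coding gene end, 97.2% were in set 1 too. Over all 19063 protein-coding genes, 36.4% had a listed region and 14.5% a differing one, and the gap to this short list was not tested. The 6 were CRCP, a polymerase III subunit, GTF3C4, a TFIIIC subunit, SNAPC2 and SNAPC5 of the complex for small nuclear RNA genes, MAF1, the repressor of polymerase III, and SSB, the La protein that binds new transcripts. At MAF1 the differing regions had folds of 2.24 (FDR = 0.000928) and 3.11 (FDR = 0.0417) in the authors' deposited table. For CRCP the authors' deposited table gave 2.44 (FDR = 1.50e-07) and 2.11 (FDR = 0.0482), and for SSB 3.31 (FDR = 0.0368). GTF3C4 had 1.64 (authors' deposited table, FDR = 0.0407).

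Of 20 genes for trimming, splicing, CCA addition and export of tRNA, 7 had a listed region (35.0%) and 1 a differing one (5.00%), beside 36.4% and 14.5% of all protein-coding genes. The 1 was RPP25, a subunit of ribonuclease P, with a fold of 2.22 (authors' deposited table, FDR = 0.000297). A set 2 region lay at RTCB, the gene for the tRNA ligase, with a fold of 3.28 (authors' deposited table, FDR = 0.0970), short of the threshold. Among 22 matched tRNA modification genes, 10 had a listed region (45.5%) and 3 a differing one (13.6%), ELP5, TRMT6 and TRMT61A, all in set 1. The share with a differing region was thus near that of all protein-coding genes. TRMT6 and TRMT61A form the methyltransferase that modifies adenosine in the T loop of tRNA, and their folds were 2.48 (FDR = 0.0131) and 1.99 (FDR = 0.00498) in the authors' deposited table. None of the 9 other short RNAs of polymerase III that were looked up matched a gene by symbol.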

How the data were processed

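Per the labels' protocols, nuclei were treated with Nextera Tn5 and the libraries were read on the BGISEQ-500 platform. Bowtie2 2.2.5 and MACS2 stand in the submitters' processing notes without a role. For the calling of differing regions, its thresholds, the build, any Tn5 shift and duplicate removal, no source used here gives the method.

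The authors deposited a linear fold change (a ratio of one group over the other), a p-value and a Benjamini-Hochberg FDR (q-value) per region. Per the file headers another column, length, holds the width in bp. A score, named signal value by the authors, is the fold times 1 constant per set (32.0 and 20.4) and was not used.

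tRNA and protein-coding genes came from a RefSeq table of the assembly ARS1.2, without strand, and its coordinates are not printed. The regions' own build is unnamed, so the 2 were compared: on 29 of 29 chromosomes regions lay within 1000 bp of gene ends most often for their own chromosome's genes. The 218 tRNA genes on other sequences were not used. No sequence was used.

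Distances run from region centres to the nearer gene end; region coordinates count from 1. The distance step was tested on simulated data with genes set far apart, which does not cover clustered genes. Python 3.11.15, pandas 2.3.3 and SciPy 1.17.1 were used. Members and lists were chosen with earlier results of these data known. Named regions are the 10 smallest p in set 1 and 5 in set 2, the 3 largest differing folds and the smallest p per amino acid at low-copy genes; the second set 2 region at TXNRD1, the second region at TRNAE-CUC, the TRNAE-UUC stretch, the comparison with other listed regions of the same 1 Mb stretches and the genes named from the polymerase III and processing lists were added after their values were seen. 1 region that the rule names is not reported here. Alternatives were other windows (500 and 2000 bp), overlap, other thresholds, other copy limits and leaving out chromosome 23 or regions near protein-coding genes. No fit across libraries could be made.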

Additional observations from a re-analysis of the deposited data

How the results depend on the processing

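No paired analysis was possible because the table holds no value per library; leaving out single libraries could not be done for the same reason. The number of regions at tRNA genes moved most when overlap with the gene was required (98, of which 64 had an FDR under 0.05) and without chromosome 23 (159 and 72). With an FDR under 0.01, 78 of the 267 regions passed. The share of all listed regions at this limit was not counted, so this count has no background beside it. The set 1 share was 98.0% within 500 bp and 99.0% with overlap, and otherwise was 92.5% without chromosome 23 and 93.1% within 2000 bp. Among passing regions it was 98.8% within 2000 bp (2 of 161 in set 2), 98.9% at a p under 1e-05 in both sets and 100% in the other alternatives. The median set 2 fold was 1.65 within 500 bp, from 4 regions, and 1.42 with overlap, from 1. The share of low-copy tRNA genes with a listed region was 18.8% with the copy limit at 200 genes, 23% within 500 bp, 38.0% within 2000 bp and 22.3% without chromosome 23. For high-copy genes it was 2.79% within 500 bp and 6.39% within 2000 bp. In every alternative the low-copy share was the higher. Depth per library is unknown, so no limit of detection can be given.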
